A study of Mus musculus with 24 samples.

Results

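The 52 mitosis genes described here code for proteins that drive, execute or police cell division. Their members were chosen by name, as the rows of the count tables whose Ensembl mouse gene identifier carries one of 52 gene symbols. All 52 were found among 126602 counted features (46603 of them annotated genes), and all 52 were among the 46949 features (16253 annotated genes) that passed a filter on low counts. The study followed mouse retinal organoids (MROs), small bodies of retinal tissue grown in culture from the wildtype mouse embryonic stem cell line E14Tg2a by a trisection protocol. Each RNA library came from a single organoid, and 6 organoids were taken at D20 of differentiation, 6 at D22, 6 at D25 and 6 at D30. All 24 organoids are labelled as controls, and the only treatment that their labels name is the solvent water. By the paper's methods, the trisection protocol itself included Matrigel, serum and the synthetic retinoid analog EC23, which was given before D20. All came from 1 independent experiment, so the spread between them is that between organoids of one culture series.

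Mitosis is the part of the cell cycle in which duplicated chromosomes are compacted, attached to a bipolar spindle and drawn apart before the cell is divided. Entry is driven by cyclin-dependent kinase 1 bound to cyclins A and B, progress is held back by the spindle checkpoint until every kinetochore is attached, and exit follows when the anaphase-promoting complex marks cyclins and securin for destruction. Many of these genes are transcribed mainly in late cell cycle phases, so that in a tissue their RNA is found mostly in dividing cells. In the developing retina these are the progenitors, which divide at the apical surface and give way to neurons and Müller glia, cells that have left the cycle.

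Between 13634846 and 19477108 reads were counted per organoid, and levels are given as normalized CPM, the reads of a gene relative to all reads counted in its library after scaling of library sizes by the TMM method. On that scale without the scaling, 3 counts stand at 0.154 to 0.22 CPM. Defining markers of retinal tissue were present throughout, with a summed level of 12 progenitor markers of 1644 ± 194 at D20 and 536 ± 51.5 at D30, and of 10 photoreceptor markers of 1751 ± 382 and 10846 ± 2537 normalized CPM (SD, n = 6). The 7 microglia markers summed to at most 1.83 normalized CPM and the 7 markers of pluripotent stem cells to at most 14.1. That highest stem cell sum was Esrrb alone (14.1), while mean Pou5f1 was at most 1.23 at every timepoint. Among other classes, the 8 Müller glia markers summed to 1191 to 1575 at D20 and 1639.6 to 4892 normalized CPM at D30. In the same order, the 8 markers of pigment epithelium and pigment cells summed to 127 to 242 and 33.5 to 2717. Those of mesenchyme (8) summed to 9.82 to 32.4 and 34.98 to 209. Those of cerebral cortex (8) summed to 15.8 to 227 and 12.8 to 249. The pigment sum was mostly Dct at D20 (mean 151 normalized CPM) and Ttr at D30 (mean 987), while mean Dct fell to 29.5. Means of Rpe65 and Best1 were at most 0.224 normalized CPM at every timepoint. In the Müller glia sum, mean Dkk3 was the largest at D20 (649) and fell to 292 at D30. The means of the other Müller glia markers were higher at D30, with Apoe going from 167 to 1127. Libraries were strand-specific, but whether the counting used the strand is not stated. Genes with exon bases under a gene of the opposite strand are therefore uncertain in that part. The largest such overlaps were those of Kif20a (29.3% of exon bases), Ube2c (22.8%), Kif4 (15.1%), Ncapg (13.4%), Ccna2 (12.5%) and Prc1 (11.1%). In other members the overlap with the opposite strand was at most 7.09% (Plk1). In libraries of whole organoids, fewer dividing cells and less RNA of these genes per dividing cell cannot be told apart.

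The mitosis genes together stood at D30 at 36.8% of their summed D20 level. The summed normalized CPM of the 52 genes were 3877, 4049, 3384, 2660.2, 3706 and 4273 in the 6 organoids of D20, and 1678, 2407, 1723, 1939.6, 3053 and 2254 in those of D22. At D25 the 6 sums were 1974, 828, 2879, 1684, 1169 and 2139.5, and at D30 they were 1734, 1202, 1149, 1402, 1416 and 1180.0. Every D20 organoid lay above every D30 organoid, while D22 reached into the range of D20 and D25 ran from the lowest sum of the series into the lower end of D20. The means were 3658 ± 575, 2176 ± 517, 1779 ± 729.8 and 1347 ± 222 normalized CPM (SD, n = 6 each). As a share of all counted reads, the 52 genes held 0.369 ± 0.0552% at D20 and 0.126 ± 0.0161% at D30 (SD, n = 6 each).

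**Figure D1:**
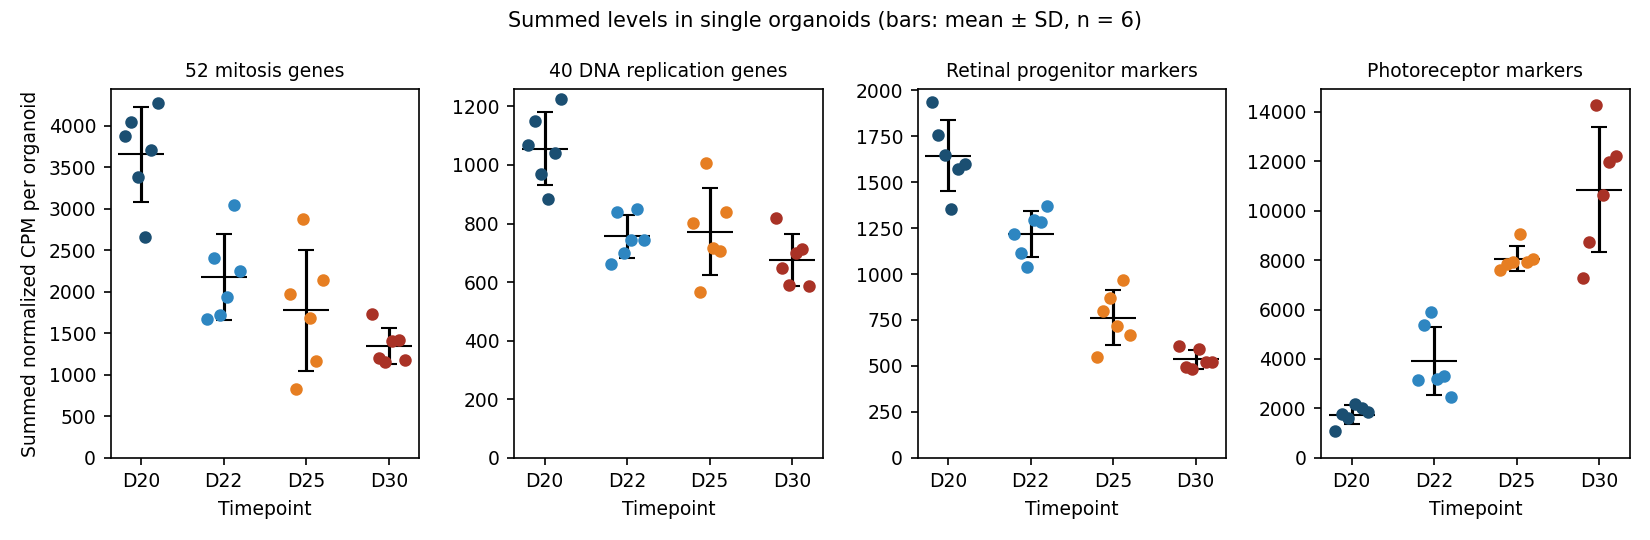
Summed normalized CPM per organoid (y axis, linear, a separate scale in each panel) by timepoint (x axis) for the 52 mitosis genes, 40 DNA replication genes, 12 retinal progenitor markers and 10 photoreceptor markers. Points are single organoids and bars are the mean ± SD (n = 6), and the mitosis sum of every D20 organoid (2660.2 or more) lies above that of every D30 organoid (1734 or less).

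Read for each gene alone, 49 of the 52 fell from D20 to D30 at an adjusted p below 0.01 (quasi-likelihood test of edgeR, Benjamini-Hochberg adjustment over all 46949 features, one fit of 24 organoids). Over all features tested 13.0% were lower by the same rule, and over the annotated genes 16.7%. No mitosis gene rose, beside 13.9% of all features and 25.1% of annotated genes. The median log2 fold change of the 52 genes was -1.47, with a range from -2.21 to -0.34, beside a median of -0.04 over all features and of 0.10 over annotated genes. In 46 of the 52 genes all 6 organoids of D20 lay above all 6 of D30, a pattern that 9.34% of all features showed. In a joint test of the 4 timepoints 48 of the 52 differed at 0.01, beside 27.2% of all features. The summed level of progenitor markers was lower at D30 as well, and those of photoreceptor and Müller glia markers were higher. Within the Müller glia list, mean Dkk3 was lower at D30. The part of these markers in the differences was not tested. The 4 genes that did not pass the joint test of edgeR were Plk1 (adjusted p = 0.0135), Ube2c (0.0113), Mad2l1 (0.0274) and Mybl2 (0.642).

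**Figure D2:**
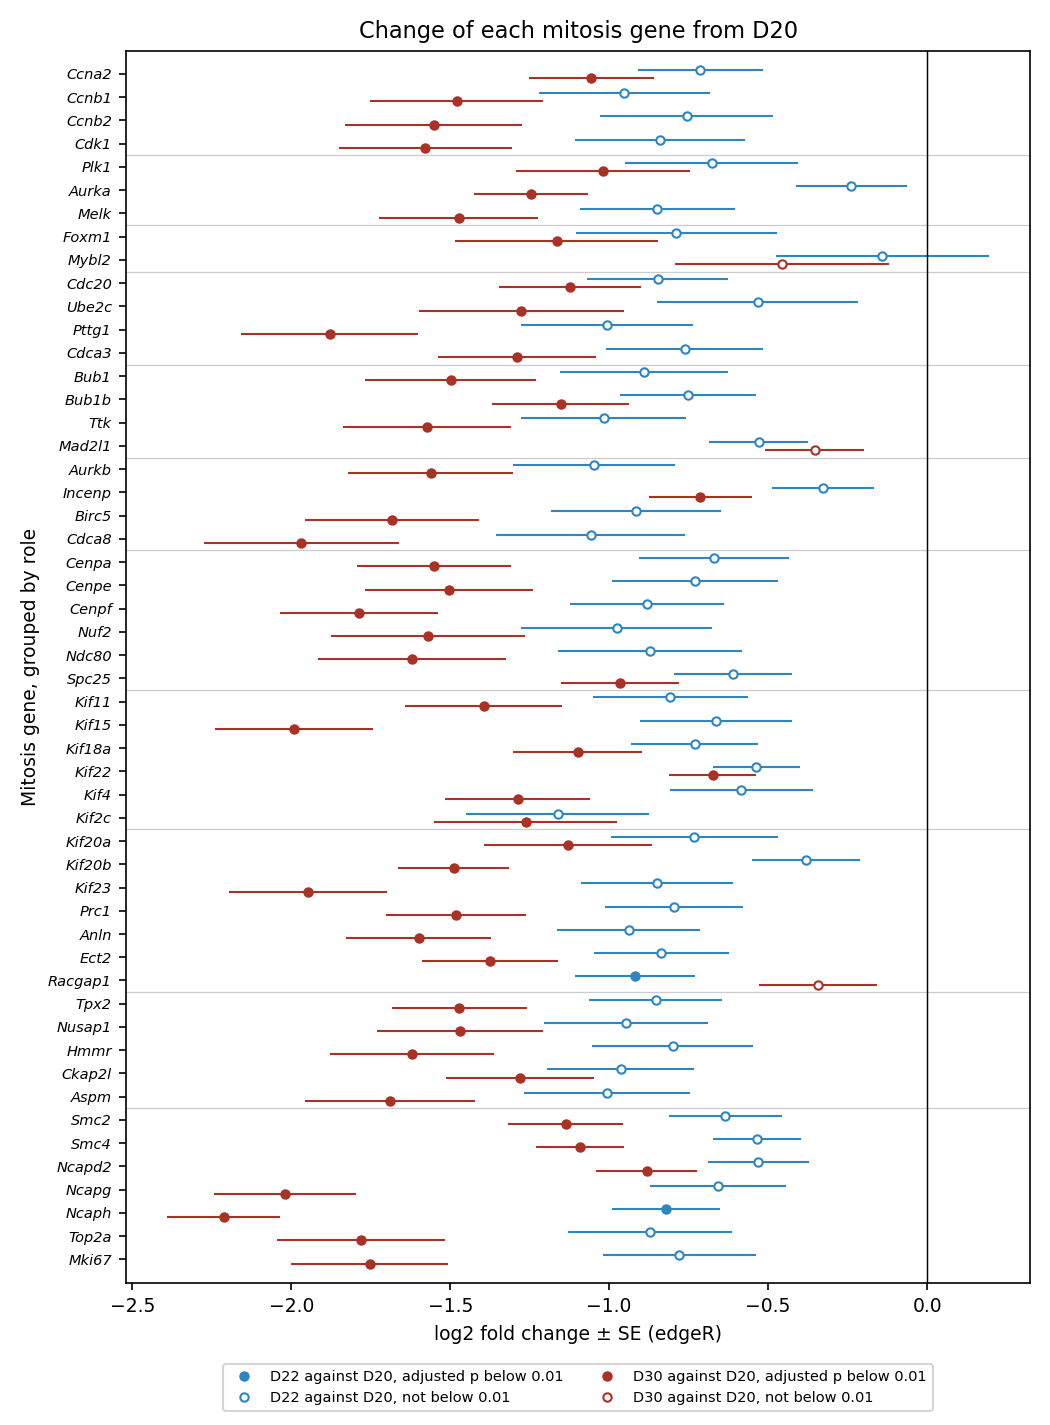
The log2 fold change ± SE from edgeR (x axis) of each of the 52 mitosis genes (y axis, grouped by role) for D22 against D20 (blue) and D30 against D20 (red), with filled points at an adjusted p below 0.01. The D30 points are filled in 49 genes and the D22 points in 2, Racgap1 and Ncaph, although every point lies below 0.

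The promoters of most of these genes held a short sequence that the choice of members did not use. The CHR (cell cycle genes homology region) is the element through which the MuvB complex contacts late cell cycle genes, and the CCAAT box is bound by the factor NF-Y. RefSeq promoter windows, 250 bases before to 50 after the transcription start (GRCm38.p6), matched 45 of the 52 genes with 47 windows, since Ect2 and Prc1 have 2 each. No window matched Ccna2, Foxm1, Aurkb, Incenp, Kif20a, Tpx2 and Smc4. The 150 bases before the start are shown for 5 genes that fell and hold a CHR there, and for Mad2l1. They lie at chr11:99024190-99024339 for Top2a (minus strand), chr10:69352913-69353062 for Cdk1 (minus strand), chr19:37376232-37376381 for Kif11 (plus strand), chr4:118437344-118437493 for Cdc20 (minus strand), chr5:45669775-45669924 for Ncapg (plus strand) and chr6:66535071-66535220 for Mad2l1 (plus strand). Mad2l1 did not pass the test from D20 to D30 and holds neither motif in its window. That window ends before the gene position given below, so bases around the annotated start of Mad2l1 were not searched. Sequences run 5′ to 3′ on the gene's strand, and capitals mark CHR matches (TTTGAA or TTCGAA on either strand, the first read as TTCAAA on the other strand) and CCAAT boxes (CCAAT, or ATTGG on the other strand), counted whether or not matches overlapped.
Top2a: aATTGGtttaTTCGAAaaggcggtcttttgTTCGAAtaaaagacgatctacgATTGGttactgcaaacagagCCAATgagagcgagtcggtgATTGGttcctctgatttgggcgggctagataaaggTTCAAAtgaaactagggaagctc
Cdk1: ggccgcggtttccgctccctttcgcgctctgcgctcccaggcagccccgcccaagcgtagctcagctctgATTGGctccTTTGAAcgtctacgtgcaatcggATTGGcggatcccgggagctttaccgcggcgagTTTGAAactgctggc
Kif11: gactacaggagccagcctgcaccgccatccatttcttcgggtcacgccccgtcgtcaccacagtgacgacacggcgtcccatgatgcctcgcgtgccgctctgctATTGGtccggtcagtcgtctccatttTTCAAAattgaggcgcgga
Cdc20: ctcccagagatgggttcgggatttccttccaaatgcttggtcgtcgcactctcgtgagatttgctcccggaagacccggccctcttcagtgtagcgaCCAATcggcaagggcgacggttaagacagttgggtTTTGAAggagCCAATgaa
Ncapg: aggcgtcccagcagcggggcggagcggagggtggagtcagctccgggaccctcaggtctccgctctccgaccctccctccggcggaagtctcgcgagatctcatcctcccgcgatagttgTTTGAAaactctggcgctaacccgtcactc
Mad2l1: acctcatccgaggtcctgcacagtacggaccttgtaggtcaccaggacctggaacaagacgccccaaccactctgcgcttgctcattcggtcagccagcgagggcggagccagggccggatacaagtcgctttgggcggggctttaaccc

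Top2a carries CHR and CCAAT matches several times over in this stretch, Cdk1 has each motif as a pair, Kif11 and Cdc20 have the CHR close before the start with CCAAT boxes nearby, and Ncapg holds a CHR alone. Over the whole windows a CHR was found in 36 of 47 mitosis gene promoters (76.6%), beside 19.2% of all 32851 windows and 13.4% of the 14008 windows of genes tested here. A CCAAT box was found in 33 of 47 (70.2%) beside 37.4% of all windows and 37.8% of those of genes tested, and both motifs together in 31 of 47 (65.96%) beside 7.53% and 5.52%. The windows also differed from others in general composition, with a GC box (GGGCGG, or its complement on the other strand) in 78.7% beside 35.7% of all windows and 61.9% of those of genes tested, and a TATAAA, on either strand, in 1 of 47 beside 13.6% and 7.05%. In 71 other mitosis genes, summarized below, a CHR was found in 38 of 68 windows (55.9%), and in DNA replication genes in 6 of 38 (15.8%). Many matches lie just behind the start. With the bases before the start alone, the share with a CHR was 38.3% in the 52 genes, 39.7% in the 71 other mitosis genes, 11.8% in genes tested and 17.1% in all windows. Among the 45 genes, the windows of Ccnb1, Melk, Mybl2, Pttg1, Mad2l1, Birc5, Cenpe, Nuf2, Kif18a, Nusap1 and Ncaph held no CHR. These include Ncaph, with the largest fall of the 52, and Mad2l1 and Mybl2, which did not pass the test. The window of Mad2l1 ends before the annotated start of the gene, so its bases around that start are not covered. Racgap1, the other gene that did not pass, held a CHR and a CCAAT box.

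**Figure D3:**
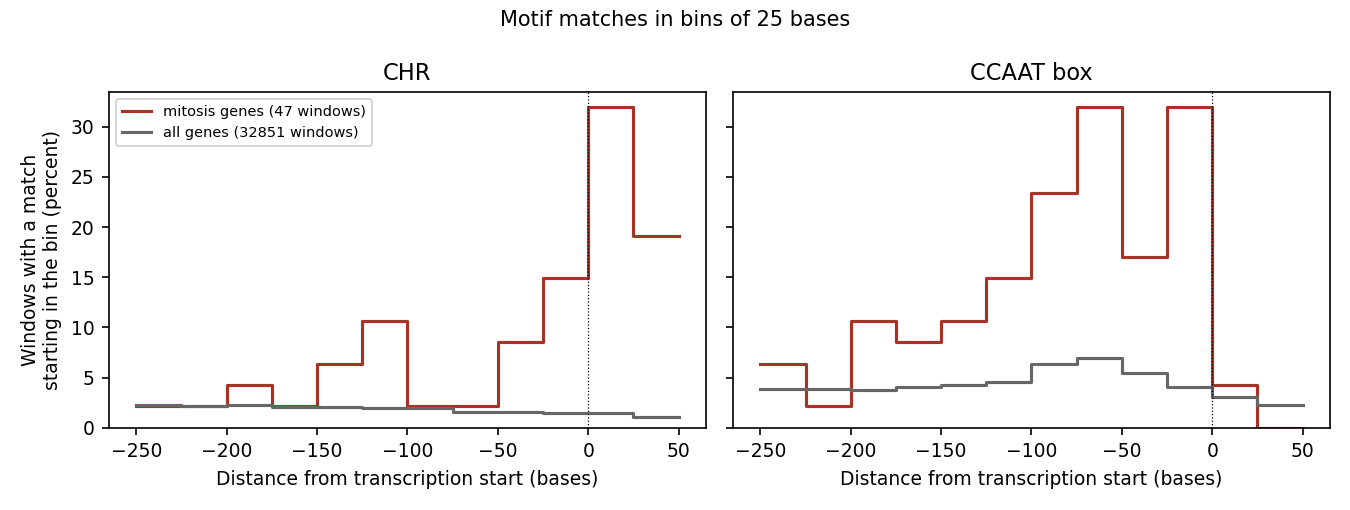
Percent of promoter windows with a motif match starting in each bin of 25 bases (y axis) by distance from the transcription start (x axis), for the CHR and the CCAAT box in 47 windows of mitosis genes (red) and all 32851 windows (grey). CHR matches of the mitosis genes reach 31.9% of windows in the bin just behind the start, where all windows stand at 1.43%.

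The cyclins and Cdk1, the engine of mitotic entry, all fell from D20 to D30 (4 of 4). Positions are those of GRCm38. Ccna2 (ENSMUSG00000027715, chromosome 3 from 36564865 to 36572150) codes for cyclin A2, which acts from DNA replication into early mitosis. Its level was 54.8 to 77.04 at D20 (median 67.99), 28.8 to 59.2 at D22 (median 36.5), 20.6 to 69.9 at D25 (median 45.9) and 28.6 to 39.5 at D30 (median 32.1), in normalized CPM. The lowest D20 organoid stood above the highest D30 organoid, while organoids of D22 and D25 reached the D20 range, and the log2 fold change from D20 to D30 was -1.06 ± 0.20 (SE, adjusted p = 7.17e-05). Cyclins B1 and B2, the partners of Cdk1 in mitosis, fell from 25.7 ± 5.67 to 9.20 ± 3.64 (Ccnb1) and from 10.1 ± 3.49 to 3.45 ± 1.54 normalized CPM (Ccnb2), and Cdk1 itself from 32.3 ± 8.06 to 10.8 ± 1.92 (SD, n = 6), with log2 fold changes of -1.48, -1.55 and -1.58.

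Of the mitotic kinases all 3 fell. Aurka (ENSMUSG00000027496, chromosome 2 from 172356190 to 172370535) codes for Aurora kinase A, which matures centrosomes and builds the spindle. Its normalized CPM were 15.6 to 27.6 at D20 (median 22.4), 11.6 to 23.6 at D22 (median 19.8), 10.9 to 23.2 at D25 (median 15.5) and 8.14 to 11.2 at D30 (median 8.94). D22 lay largely within the range of D20, and D30 lay below all organoids of D20 and D22 and overlapped with the lowest organoid of D25. From D20 to D30 the log2 fold change was -1.25 ± 0.18 (SE, adjusted p = 1.48e-06). Plk1, the polo-like kinase of mitotic entry and exit, went from 8.82 ± 1.82 to 4.35 ± 1.18 normalized CPM (-1.02 on the log2 scale), and Melk, a kinase of proliferating cells, from 13.4 ± 3.31 to 4.82 ± 1.15 (-1.47). The call for Plk1 (adjusted p = 0.00371) was lost without D20 replicate 1 (0.0115), D30 replicate 3 (0.0116) or D30 replicate 5 (0.0104).

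The transcription factors of the G2/M programme were the least abundant members per length. Foxm1 (ENSMUSG00000001517, chromosome 6 from 128362967 to 128376146), an activator of late cell cycle genes, had normalized CPM of 6.91 to 11.2 at D20 (median 7.37), 2.99 to 10.1 at D22 (median 3.42), 1.53 to 5.27 at D25 (median 3.94) and 1.66 to 5.71 at D30 (median 3.51). The D20 organoids stood above all of D30, and 1 organoid of D22 stood far above the other 5. The log2 fold change from D20 to D30 was -1.16 ± 0.32 (SE, adjusted p = 0.00433), and it did not pass 0.01 without D20 replicate 1 (adjusted p = 0.0148), D30 replicate 5 (0.0111) or D30 replicate 6 (0.0124). Mybl2 (ENSMUSG00000017861, chromosome 2 from 163054687 to 163084688), the B-Myb that joins MuvB at these promoters, was measured at 1.01 to 3.27 at D20 (median 2.71), 1.35 to 3.14 at D22 (median 2.26), 0.488 to 3.13 at D25 (median 2.08) and 1.24 to 2.49 at D30 (median 1.73) normalized CPM, a level of 7 counts in its lowest library. Its groups overlapped throughout, and the log2 fold change of -0.46 ± 0.34 (SE, adjusted p = 0.305) did not pass the test.

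The genes around the anaphase-promoting complex fell in 4 of 4 cases. Cdca3 (ENSMUSG00000023505, chromosome 6 from 124829547 to 124833701), a mitotic entry factor and substrate of that complex, had normalized CPM of 14.6 to 26.1 at D20 (median 22.6), 8.41 to 17.6 at D22 (median 12.4), 3.56 to 22.4 at D25 (median 11.6) and 7.12 to 11.1 at D30 (median 8.29). D20 lay above D30 without overlap, and D25 held both the lowest value of all 24 organoids and 1 value within the D20 range. Its log2 fold change from D20 to D30 was -1.29 ± 0.25 (SE, adjusted p = 0.000115). Pttg1, securin, which holds separase inactive until anaphase, showed the largest fall of this group, from 14.3 ± 3.59 to 3.87 ± 1.04 normalized CPM (-1.88 on the log2 scale), and all its D20 organoids already lay above all of D22. Cdc20, the activator of the complex at anaphase, and Ube2c, its ubiquitin-conjugating enzyme, changed by -1.12 and -1.28.

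Of the spindle checkpoint genes 3 of 4 fell. Bub1b (ENSMUSG00000040084, chromosome 2 from 118598211 to 118641591), which codes for the checkpoint protein BubR1, had normalized CPM of 37.5 to 61.1 at D20 (median 45.4), 22.1 to 43.6 at D22 (median 25.4), 10.2 to 44.4 at D25 (median 25.1) and 18.5 to 24.01 at D30 (median 22.6). All of D20 lay above all of D30, and the log2 fold change was -1.15 ± 0.22 (SE, adjusted p = 7.39e-05). Bub1 and Ttk (Mps1), the kinases that recruit the checkpoint to kinetochores, changed by -1.50 and -1.57. Mad2l1 (ENSMUSG00000029910, chromosome 6 from 66535390 to 66547220) codes for Mad2, the checkpoint protein that binds Cdc20. Its normalized CPM were 20.2 to 34.5 at D20 (median 25.5), 13.3 to 22.5 at D22 (median 17.9), 12.3 to 24.1 at D25 (median 19.5) and 18.2 to 23.1 at D30 (median 20.1). D20 and D30 overlapped, and the log2 fold change of -0.35 ± 0.15 (SE, adjusted p = 0.0719) did not pass the test, with an adjusted p from 0.0159 to 0.21 over the alternative settings.

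The chromosomal passenger complex, which corrects wrong attachments and then moves to the midzone for cytokinesis, fell in all 4 subunits. Incenp (ENSMUSG00000024660, chromosome 19 from 9872296 to 9899551) codes for its scaffold and was measured at 30.2 to 39.02 at D20 (median 34.2), 20.7 to 40.4 at D22 (median 25.3), 16.6 to 28.9 at D25 (median 24.1) and 15.2 to 26.3 at D30 (median 20.7) normalized CPM. The lowest D20 organoid stood above the highest of D30 by a small margin, with a log2 fold change of -0.71 ± 0.16 (SE, adjusted p = 0.000743), the smallest among members that passed apart from Kif22. The other subunits fell further, namely the kinase Aurkb from 11.2 ± 3.39 to 3.79 ± 1.07, survivin (Birc5) from 28.8 ± 8.29 to 8.95 ± 1.91 and borealin (Cdca8) from 29.96 ± 9.21 to 7.66 ± 2.29 normalized CPM (SD, n = 6), or -1.56, -1.68 and -1.97 on the log2 scale.

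All 6 centromere and kinetochore genes fell. Cenpf (ENSMUSG00000026605, chromosome 1 from 189640606 to 189688086) codes for a large kinetochore protein and was at 203 to 347 at D20 (median 323), 122 to 241 at D22 (median 157), 46.1 to 217 at D25 (median 135) and 67.4 to 114 at D30 (median 85.8) normalized CPM. Its D20 values lay above those of D30 without overlap, and D25 ran from the lowest value of the series up into the D20 range. The log2 fold change from D20 to D30 was -1.79 ± 0.25 (SE, adjusted p = 8.89e-07). The kinetochore motor Cenpe changed by -1.50, the centromeric histone variant Cenpa by -1.55, and the Ndc80 complex, which grips microtubule ends, by -1.62 (Ndc80), -1.57 (Nuf2) and -0.96 (Spc25) on the log2 scale. Spc25 had the smallest fall of the group, although it belongs to the same complex as Nuf2 and Ndc80, and the difference between them was not tested.

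All 6 kinesins of spindle and chromosomes fell. Kif11 (ENSMUSG00000012443, chromosome 19 from 37376403 to 37421859), the motor that pushes spindle poles apart, had normalized CPM of 51.6 to 81.1 at D20 (median 68.3), 30.1 to 61.6 at D22 (median 34.03), 14.6 to 54.7 at D25 (median 38.8) and 16.9 to 43.6 at D30 (median 24.3). D20 stood above D30 in all organoids, and 1 D30 organoid stood apart from the other 5 at the top. The log2 fold change was -1.39 ± 0.25 (SE, adjusted p = 3.59e-05). Kif15 (ENSMUSG00000036768, chromosome 9 from 122951046 to 123018733) codes for a motor that holds the bipolar spindle alongside Kif11, and its level was 46.8 to 78.5 at D20 (median 66.03), 24.8 to 64.1 at D22 (median 36.7), 11.6 to 47.2 at D25 (median 28.6) and 11.4 to 22.3 at D30 (median 15.3) normalized CPM. All D20 organoids lay well above all D30 organoids, and with -1.99 ± 0.25 (SE, adjusted p = 1.49e-07) it was among the 3 largest falls. Kif18a, which limits microtubule length, changed by -1.10, the chromokinesins Kif4 and Kif22 by -1.29 and -0.67, and the depolymerase Kif2c by -1.26, with all D20 organoids of Kif2c also above those of D22.

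Of the genes of central spindle and cytokinesis 6 of 7 fell. Prc1 (ENSMUSG00000038943, chromosome 7 from 80294450 to 80316259), which bundles midzone microtubules, had normalized CPM of 70.9 to 122 at D20 (median 95.3), 41.3 to 78.4 at D22 (median 52.6), 25.03 to 75.2 at D25 (median 55.8) and 25.2 to 44.5 at D30 (median 35.5). D20 and D30 did not overlap, and the log2 fold change was -1.48 ± 0.22 (SE, adjusted p = 2.76e-06). Kif23, the motor of centralspindlin, fell most (-1.95 on the log2 scale), followed by Anln (-1.60), the scaffold of the contractile ring, Kif20b (-1.49), Ect2 (-1.37), the exchange factor that activates RhoA, and Kif20a (-1.13). Racgap1 (ENSMUSG00000023015, chromosome 15 from 99620496 to 99651656) codes for the other subunit of centralspindlin, and the difference of its course from that of Kif23 was not tested. Its normalized CPM were 22.3 to 29.7 at D20 (median 27.00), 12.7 to 16.5 at D22 (median 14.04), 8.37 to 27.4 at D25 (median 15.9) and 14.9 to 25.6 at D30 (median 21.7). All D20 organoids lay above all D22 organoids, which were closely grouped, whereas D30 overlapped with D20 and all but its lowest organoid lay above D22. From D20 to D30 its log2 fold change was -0.34 ± 0.19 (SE, adjusted p = 0.151), which did not pass the test (adjusted p from 0.0368 to 0.296 over the alternative settings).

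The 5 spindle assembly genes all fell. Aspm (ENSMUSG00000033952, chromosome 1 from 139454772 to 139494091), a spindle pole protein whose loss causes a small brain, had normalized CPM of 61.6 to 118 at D20 (median 96.1), 28.9 to 59.2 at D22 (median 48.6), 15.1 to 74.6 at D25 (median 39.9) and 20.4 to 49.6 at D30 (median 27.3). D20 lay above both D22 and D30 without overlap, and the log2 fold change from D20 to D30 was -1.69 ± 0.27 (SE, adjusted p = 6.93e-06). Tpx2, which activates Aurora A on the spindle, went from 80.3 ± 14.1 to 28.98 ± 7.01 normalized CPM, a change of -1.47 on the log2 scale. Nusap1, Hmmr and Ckap2l, microtubule-binding proteins of the spindle, changed by -1.47, -1.62 and -1.28.

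The genes of chromosome structure included the most abundant members, and all 7 fell. Per kilobase of exon, the highest levels at D20 were those of Smc4 (87.4 normalized CPM per kilobase), Top2a (55.2), Mki67 (42.7) and Smc2 (29.6), and the lowest of all 52 were those of Foxm1 (1.41) and Mybl2 (0.536). Smc4 (ENSMUSG00000034349, chromosome 3 from 69004738 to 69034623) codes for a core subunit of both condensins, the complexes that compact chromosomes, and its level was 337 to 518 at D20 (median 466), 255 to 387 at D22 (median 301), 161 to 331 at D25 (median 236) and 185 to 233 at D30 (median 223) normalized CPM. D20 did not overlap with D30, and the log2 fold change was -1.09 ± 0.14 (SE, adjusted p = 1.93e-07). Ncaph (ENSMUSG00000034906, chromosome 2 from 127103809 to 127133954) codes for the kleisin subunit found only in condensin I, with 39.2 to 56.6 at D20 (median 42.8), 20.9 to 29.2 at D22 (median 24.8), 10.9 to 27.9 at D25 (median 17.8) and 6.93 to 13.1 at D30 (median 9.07) normalized CPM. Every D20 organoid lay above every D22 organoid, and every D22 organoid above every D30 organoid. Its fall of -2.21 ± 0.18 (SE, adjusted p = 2.30e-11) from D20 to D30 was the largest of the 52 genes.

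Ncapg (ENSMUSG00000015880, chromosome 5 from 45669919 to 45700546), another condensin I subunit, had 40.4 to 79.1 at D20 (median 62.3), 22.5 to 52.01 at D22 (median 38.7), 13.5 to 43.2 at D25 (median 26.00) and 12.99 to 19.2 at D30 (median 13.8) normalized CPM and the second-largest fall, -2.02 ± 0.22 (SE, adjusted p = 1.64e-08). D20 and D30 did not overlap, and all D30 organoids lay below all D22 organoids as well. Ncapd2, the remaining condensin I subunit among the members, changed by -0.88, and Smc2, the partner of Smc4, by -1.14. Mki67, the proliferation marker that coats mitotic chromosomes, went from 429.6 ± 47.2 through 250.2 ± 82.6 and 185 ± 93.9 to 127 ± 25.7 normalized CPM, and Top2a, the topoisomerase that untangles sister chromatids, from 497 ± 108 through 272 ± 86.9 and 223 ± 118 to 145 ± 35.9 (SD, n = 6), with log2 fold changes of -1.75 and -1.78 from D20 to D30. Read as summed levels by role, D30 stood between 33.4% of D20 for centromere and kinetochore genes and 51.2% for the transcription factors.

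When the fall took place was asked with the 3 steps between neighbouring timepoints. From D20 to D22 all 52 genes had a log2 fold change below 0 (median -0.80, beside 0.02 over all features), and 2 fell at an adjusted p below 0.01, Racgap1 with -0.92 ± 0.19 (SE, adjusted p = 0.00307) and Ncaph with -0.82 ± 0.17 (SE, adjusted p = 0.00317), beside 0.285% of all features. At an adjusted p below 0.05 the count was 32, and 48 of the 52 had an unadjusted p below 0.05. The number of calls moved with the setting, and 29 genes fell at 0.01 in a fit limited to these 12 organoids, 16 by DESeq2, 13 without D25 replicate 2, 10 without D22 replicate 5, 6 without D25 replicate 3, 4 without any one of D20 replicates 4 and 5, D22 replicate 6 and D30 replicate 6, and 1 without D20 replicate 1 or without D22 replicate 3. In 8 genes all D20 organoids lay above all D22 organoids (Pttg1, Kif2c, Anln, Ect2, Racgap1, Ckap2l, Aspm and Ncaph), beside 0.965% of all features.

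From D22 to D25 none of the 52 genes passed 0.01 in edgeR, beside 2.19% of all features that were lower, and 9 were lower at an unadjusted p below 0.05. DESeq2 called 1 gene, Kif20b, a kinesin of cytokinesis, for which edgeR gave -0.64 ± 0.17 (SE, adjusted p = 0.0134). The median log2 fold change was -0.23, with 42 genes below 0 and 10 above it. Without D25 replicate 3 the count was 2 and without D22 replicate 3 it was 1. From D25 to D30 the median was -0.44, and 2 genes fell, Ncaph with -1.001 ± 0.17 (SE, adjusted p = 0.000257) and Aurka with -0.78 ± 0.18 (SE, adjusted p = 0.00464), beside 1.75% of all features. In a fit limited to the 12 organoids of D25 and D30 only Ncaph passed. Aurka, with -0.24 ± 0.17 (SE, adjusted p = 0.52) for D22 against D20, did not pass the test in the first step. The count from D25 to D30 was 4 without D25 replicate 2 and 1 without any one of D25 replicates 3 and 6 and D30 replicates 2, 3 and 4. Tests of 1 step against the next called no gene. For the first step against the second, 0 of 52 passed in edgeR (11 at an unadjusted p below 0.05, 0 by DESeq2), beside 0.0277% of all features. For the second against the third, 0 of 52 passed as well (2 at an unadjusted p below 0.05, Kif22 and Ncaph, 0 by DESeq2), beside 0.0447%. The lowest adjusted p of the first kind was that of Racgap1 (0.12), with a difference of -1.15 ± 0.33 (SE) in log2 fold change.

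Organoids of one timepoint differed most at D25, and they did so in nearly all of these genes at once. The 6 organoids of D25 gave the 52 genes a median coefficient of variation of 43.6%, against 19.7% in D20, 29.1% in D22 and 23.7% in D30. Over annotated genes tested the medians of D20, D22, D25 and D30 were 19.1%, 21.2%, 17.8% and 21.8%, so the widening at D25 was not shared by genes at large. At D25 replicate 2 was the lowest organoid in 49 of the 52 genes and replicate 3 the highest in 45, with summed levels of 828 and 2879 normalized CPM. At D22 replicate 5 was the highest in 41, at D30 replicate 1 in 39, and at D20 replicate 4 was the lowest in 39. The genes of an organoid share its library, so these counts describe single organoids and are not separate observations.

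**Figure D4:**
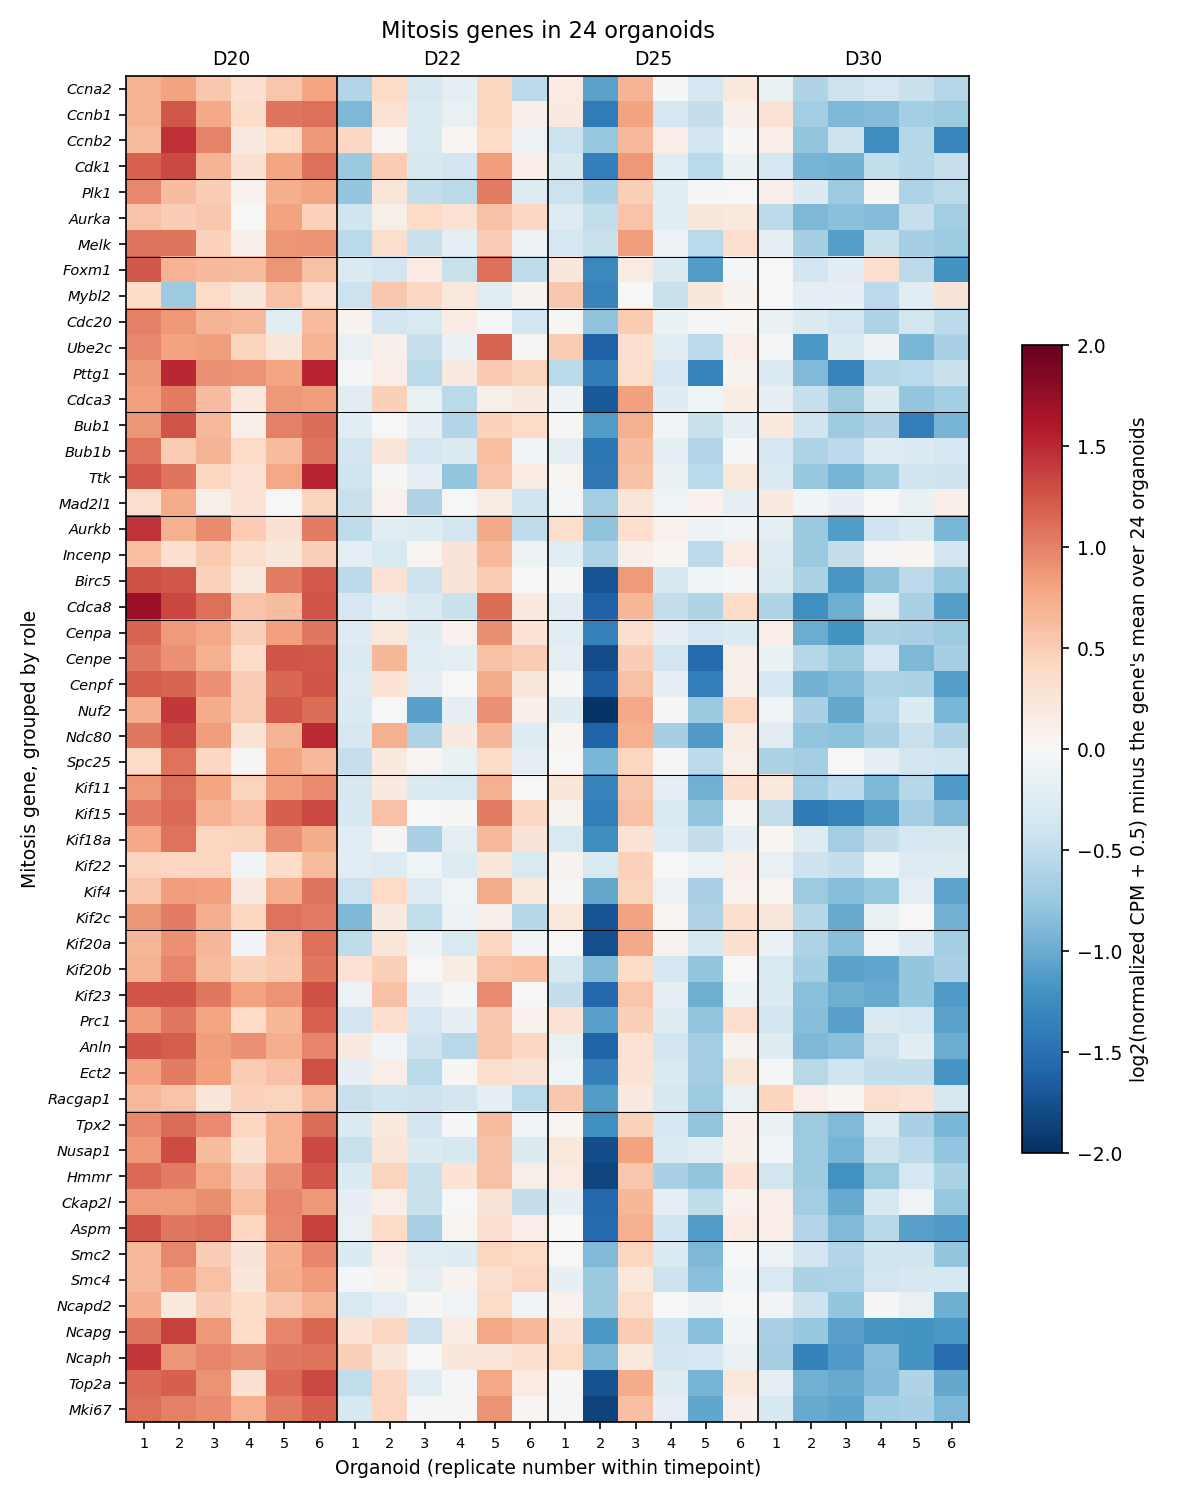
Each of the 52 mitosis genes (rows, grouped by role) in each of the 24 organoids (columns, by timepoint and replicate number), as log2(normalized CPM + 0.5) minus the mean of that gene over all organoids. Columns D25 replicate 2 (lowest of its timepoint in 49 genes) and D25 replicate 3 (highest in 45) stand out along nearly their whole length.

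The same organoids were also at the ends for DNA replication genes, whose summed level at D25 was lowest in replicate 2 (566 normalized CPM) and highest in replicate 3 (1006). Progenitor markers did not rank them so, with 799 in replicate 2 and 869 in replicate 3 within a range of 548 to 968, and their photoreceptor sums were close (7828 and 7917). Müller glia markers were highest in replicate 3 (1607, beside 1148 to 1361 in the other 5). Replicate 2 had the fewest counted reads of its timepoint (14524620). D30 replicate 1 had the highest summed level of 8 Müller glia markers (4892 normalized CPM, beside 1639.6 to 3754 in the other 5) and of 8 markers of the oligodendrocyte lineage (278). Of the oligodendrocyte list, Pdgfra had the largest mean at D30 (85.9). Mean Mbp went from 28.2 at D20 to 16.3 at D30 and mean Olig2 from 28.6 to 12.3, while the means of the other genes in that list were higher at D30. D20 replicate 4 had the lowest progenitor sum of its timepoint (1354, beside 1569 to 1934) and the highest photoreceptor sum (2179). The part of these markers in the mitosis gene levels was not tested. Without D25 replicate 2, D25 replicate 3, D22 replicate 5, D30 replicate 1 or D20 replicate 4, each left out alone, 49 genes fell from D20 to D30.

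The balance among the genes was also compared between D20 and D30. Shares of the summed normalized CPM of the 52 genes do not depend on library scaling. By this share, 7 genes were higher in all D30 organoids than in all D20 organoids, 6 were lower and 39 overlapped. No share over all features stands beside these counts, because the shares were taken within the 52 genes only. Racgap1 went from 0.658 to 0.977% at D20 to 1.26 to 1.72% at D30 and Mad2l1 from 0.545 to 0.940% to 1.31 to 1.85%. The other genes with a higher share were Ccna2, Incenp, Kif22, Smc2 and Smc4, the last with 11.7 to 12.9% at D20 and 13.4 to 19.1% at D30. Lower shares were those of the condensin I genes Ncaph (0.969 to 1.51%, then 0.587 to 0.815%) and Ncapg, the motors Kif15 and Kif23, Cenpf, and Mki67 (10.6 to 13.2%, then 8.86 to 9.88%). Ncapd2, the other condensin I gene of the panel, held 1.45 to 2.49% at D20 and 2.19 to 3.56% at D30, with overlap. Differences between the shares of these genes were not tested. Shares of 1 panel sum to a whole, so a rise in one entails a fall in others.

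**Figure D5:**
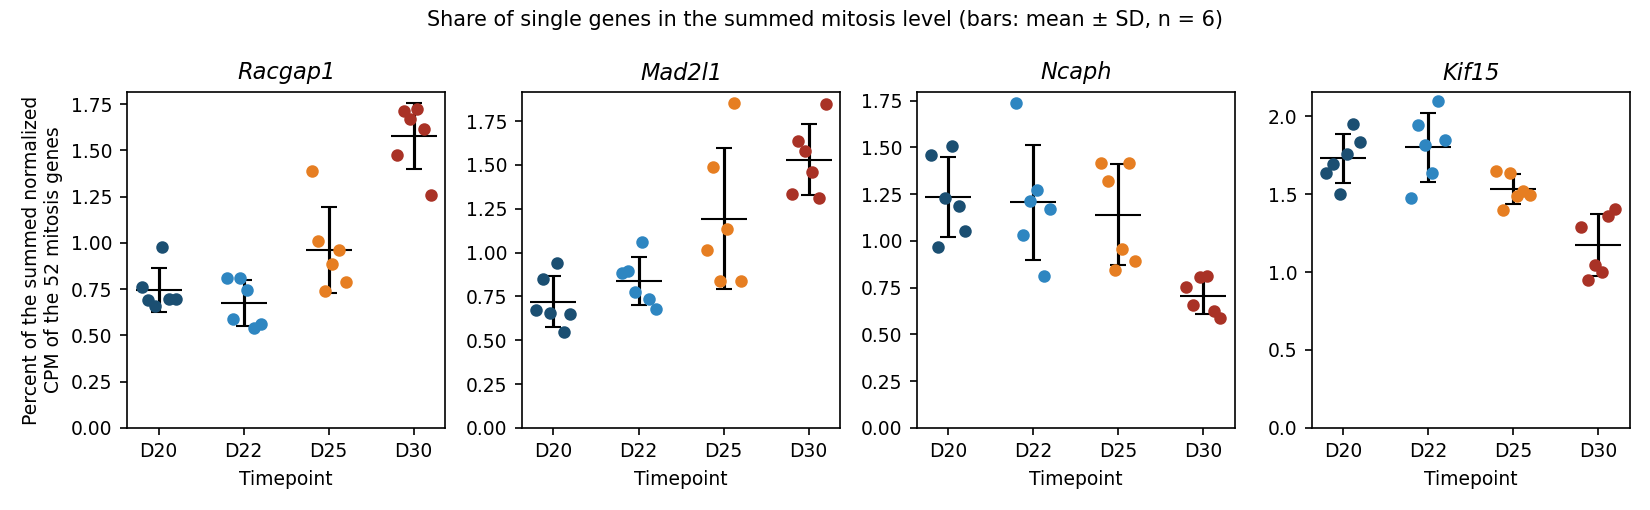
Percent of the summed normalized CPM of the 52 mitosis genes (y axis, linear, a separate scale in each panel) held by Racgap1, Mad2l1, Ncaph and Kif15 in each organoid, by timepoint (x axis). Points are single organoids and bars the mean ± SD (n = 6), with Racgap1 and Mad2l1 higher in every D30 organoid than in every D20 organoid and Ncaph and Kif15 lower.

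Other genes of division gave the setting for the 52. Of 71 further mitosis genes, 47 fell from D20 to D30 and 1 rose (median log2 fold change -1.11). From D20 to D22, 6 of them fell, beside 0.285% of all features. The largest fall was that of Knl1, the kinetochore scaffold of the checkpoint, from 91.5 ± 14.95 to 21.04 ± 4.72 normalized CPM, with -2.12 ± 0.21 (SE, adjusted p = 1.17e-09). The gene that rose was Zwint, a kinetochore protein, with 0.31 ± 0.08 (SE, adjusted p = 0.00441). A list of 15 genes held core subunits of the anaphase-promoting complex, the ligase on which Cdc20 and Ube2c act, and Fzr1, another activator. Of these 15, 2 fell, Cdc26 with -0.43 ± 0.10 (SE, adjusted p = 0.000561) and Anapc5 with -0.40 ± 0.11 (SE, adjusted p = 0.00363), and the median was -0.0041. At the other end of that list stood Anapc4 with 0.29 ± 0.09 (SE, adjusted p = 0.0142), which did not pass.

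DNA replication genes fell in 22 of 40 cases from D20 to D30 (median -0.72) and in 5 cases (Mcm2, Mcm3, Mcm6, Cdc45 and Uhrf1) from D20 to D22. The largest fall was that of Cdt1, a licensing factor of replication origins, with -1.48 ± 0.28 (SE, adjusted p = 9.11e-05), and the other end was Gins4, a subunit of the replicative helicase, with 0.01 ± 0.12 (SE, adjusted p = 0.942). A list of 21 genes held components of MuvB, E2F and DREAM complexes, the regulators that switch these genes on and off through the cell cycle. It also held Nfyc, which codes for a subunit of NF-Y. Of the 21 genes, 9 fell and 2, Nfyc and E2f3, rose (median -0.23). Mybl1, the A-Myb relative of Mybl2, had the largest fall of these lists, from 397 ± 56.5 to 37.7 ± 5.001 normalized CPM, with -3.40 ± 0.15 (SE, adjusted p = 2.73e-16). The highest value was that of Lin52, a MuvB subunit, with 0.49 ± 0.20 (SE, adjusted p = 0.0567), which did not pass. These lists, like the 52 genes, are to be read beside the 16.7% of annotated genes that were lower at D30 and the 25.1% that were higher. From D20 to D22, 0.285% of all features and 124 of 16253 annotated genes were lower. The differences between lists were not tested.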

How the data were processed

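RNA of 24 single organoids was measured by strand-specific, rRNA-depleted sequencing. The authors' deposited files hold raw counts of reads per annotated gene or assembled locus, made after demultiplexing (bcl2fastq 2.20), trimming (cutadapt 1.5), alignment to GRCm38/mm10 (HISAT2), transcript assembly (StringTie 1.3.3) and counting (HTSeq 0.6.1), with no pooling of organoids. Their strand setting is not given in the sources used here. Assembled loci take reads and a place in the multiple testing, and rRNA depletion keeps unspliced and non-polyadenylated RNA. Groups came from the sample labels.

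Features with a DESeq2 base mean of at least 10 were kept (46949 of 126602). All 24 organoids entered 1 model with 4 timepoints in edgeR 4.0.16 (R 4.3.3, TMM, quasi-likelihood test), with Benjamini-Hochberg adjustment over all features kept and a threshold of 0.01. SE are those of the log2 fold change in that fit, and a difference between steps was tested as a contrast of the same fit. The scripts were tested on simulated data. Normalized CPM came from edgeR with TMM, and sums add them over genes. The alternatives changed 1 choice at a time, except that DESeq2 1.42.0 brought its own size factors, dispersions and Wald test together. The 60 pairs of organoids of 1 timepoint all differed beyond sampling noise, the lowest chi-square per degree of freedom being 6.35, so each organoid was counted as a sample. P-values measure the spread between organoids of 1 experiment.

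The members and lists were chosen with earlier results of these data known. Every gene is named, and values by organoid are described for the most abundant gene of each role and the 3 largest and 3 smallest changes from D20 to D30. Of the other lists the ends were named, and genes behind counts of 5 or fewer were named after their values were seen. The overlap of exons was taken from the GENCODE annotation of GRCm38, and promoters from RefSeq. Depth was 13634846 to 19477108 counted reads, at which 3 counts stand at 0.154 to 0.22 CPM, a limit that covers counting error only.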

Additional observations from a re-analysis of the deposited data

Results flagged for a closer look

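Of 212 groups of 6 organoids examined, 15 had 1 organoid farther from the others than Dixon's 95% critical value allows, while chance alone gives about 1 in 20 groups. The groups share their libraries and are not independent. Of the 15, 6 were D22 replicate 5, always the highest, with 10.14 normalized CPM for Foxm1 (2.99 to 5.07 in the other 5 organoids), 10.14 for Ube2c, 10.21 for Aurkb, 29.13 for Cdca8, 21.51 for Cenpa and 23.09 for Kif22. A further 5 were D30 replicate 1, also the highest, with 16.56 for Ccnb1 (7.01 to 8.29 in the other 5), 12.16 for Cenpa, 43.62 for Kif11, 17.87 for Kif23 and 49.62 for Aspm. The remaining groups were Cdk1 at D25, where replicate 3 was highest with 30.97, Mybl2 at D20, where replicate 2 was lowest with 1.008, Ckap2l at D20, where replicate 4 was lowest with 32.92, and Ncaph at D20, where replicate 1 was highest with 56.57 normalized CPM.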

How the results depend on the processing

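From D20 to D30 the count of 49 genes that fell stayed within 1.5 times under every alternative run, with a range of 47 to 49 when each organoid was left out in turn, and the joint test gave 45 to 50. Tests of step differences gave 0 genes each time. The count from D20 to D22, which was 2, was 16 by DESeq2, 11 with no filter on low counts, 29 with only the compared timepoints, 32 at an adjusted p below 0.05, and 1 to 13 with 1 organoid left out. Ncaph was not called there without D20 replicate 1 (adjusted p = 0.014 in edgeR) or D22 replicate 3 (0.0133). From D22 to D25 the count was 1 by DESeq2, 1 with annotated genes only, 2 at an adjusted p below 0.05, and 0 to 2 with 1 organoid left out. From D25 to D30 it was 1 with only the compared timepoints, 4 at an adjusted p below 0.05, and 1 to 4 with 1 organoid left out. The cause of these differences was not tested. No called direction was reversed, and from D20 to D22 and from D20 to D30 no gene changed sign under any of 31 alternatives. The sign of genes that were not called differed under at least 1 of them in 20 genes from D22 to D25 and in 6 from D25 to D30. With the replicate number as a block the counts were 2, 0 and 2 for the 3 steps, 49 from D20 to D30 and 47 in the joint test. Deviations of organoids with the same number had a mean correlation of 0.0129 over 36 pairs (-0.0833 to 0.214), and 6 of 24 libraries correlated best with one of their own number, so the pairing is of numbers only. Depth limits Mybl2 most, with 7 counts in its lowest library.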
